A study of Mus musculus with 10 samples.

Results

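The IFIT genes encode interferon-induced proteins with tetratricopeptide repeats, and here their transcripts were measured in acute lymphoblastic leukaemia of transplanted mice. All probe sets of the array annotated to Ifit1, Ifit2, Ifit3 or Ifit1bl1, or to an older symbol of Ifit1bl1, were taken, which gave 4 probe sets, 1 per gene, of 45037. They stand for 4 of 18193 genes that had a probe set with 1 symbol. Leukaemia came from 5 animals given allogeneic C3.SW marrow and spleen cells and from 5 given syngeneic C57BL/6 marrow and spleen cells, with 1 array per animal. All 10 recipients were C57BL/6 mice prepared with whole-body irradiation and 5-fluorouracil, and both groups carried the same C57BL/6 leukaemia, named NSTY ALL in the labels, with human p210 bcr/abl and a deleted Ink4a/Arf locus. C3.SW mice share the major histocompatibility haplotype of C57BL/6 and differ from it in minor antigens. The leukaemia was sorted and moved to newly transplanted recipients at intervals of 2 to 3 weeks, and RNA was taken after 3 serial transplants from cells sorted on a green fluorescent marker. The leukaemia is 1 line passed in series, and the labels give neither the ages of the animals nor whether those of a group shared an earlier recipient. The p-values therefore cover only the spread among these 10 mice, which may be partly technical.

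IFIT proteins bind RNA and are among the most strongly inducible products of the interferon response. Type I interferon acts through its receptor to activate the transcription factor complex ISGF3, which binds the interferon-stimulated response element in the promoters of these genes, and IRF3 can switch on several of them directly after viral RNA is sensed. IFIT1 holds on to RNA whose cap lacks ribose methylation and keeps it from being translated, IFIT2 has been tied to translational control and cell death, and IFIT3 in humans stabilises IFIT1 and strengthens its RNA binding. Ifit1bl1 is a mouse relative of Ifit1 that arose by duplication within the cluster.

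The members lie together on chromosome 19, at chr19:34550550-34662981 of GRCm38.p6, a stretch of 112 kb. Ifit2, Ifit3 and Ifit1 are annotated on the plus strand and Ifit1bl1 on the minus strand. As annotated, Ifit1bl1 runs from 34592888 to 34662981 and so spans Ifit1, Ifit3b and Ifit1bl2. Ifit3b is a close relative of Ifit3 and was not measured by a probe set of its own here. Probes for one gene of this cluster may therefore also bind transcripts of another, which was not tested.

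The promoter windows are shown because the interferon-stimulated response element is the sequence through which the family is switched on. Each runs from 250 bases before the start of a RefSeq transcript to 50 after it, 5′ to 3′ on the strand of the gene, on GRCm38.p6. That start is the outer edge of the annotated gene for Ifit1, but it lies 144 bases inside the annotated gene for Ifit2, 410 bases inside for Ifit3 and 61.0 kb inside for Ifit1bl1. The outer start of Ifit1bl1 was therefore not searched. The windows are chr19:34640639-34640938 (plus) for Ifit1, chr19:34601919-34602218 (minus) for Ifit1bl1, chr19:34550444-34550743 (plus) for Ifit2 and chr19:34583279-34583578 (plus) for Ifit3. Capitals mark each match to the core of the element, GAAA followed by any 2 bases and a second GAAA, searched on both strands.
Ifit1: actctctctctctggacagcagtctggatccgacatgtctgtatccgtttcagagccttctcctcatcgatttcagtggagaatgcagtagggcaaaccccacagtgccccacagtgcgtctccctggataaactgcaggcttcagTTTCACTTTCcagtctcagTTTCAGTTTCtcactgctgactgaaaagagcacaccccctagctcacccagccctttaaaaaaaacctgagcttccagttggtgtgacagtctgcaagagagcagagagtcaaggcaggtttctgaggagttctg
Ifit1bl1: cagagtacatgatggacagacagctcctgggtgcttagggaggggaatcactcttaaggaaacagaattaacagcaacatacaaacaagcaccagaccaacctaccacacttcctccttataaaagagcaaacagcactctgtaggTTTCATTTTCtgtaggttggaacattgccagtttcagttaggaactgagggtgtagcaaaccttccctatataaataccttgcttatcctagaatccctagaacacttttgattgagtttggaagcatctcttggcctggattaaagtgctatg
Ifit2: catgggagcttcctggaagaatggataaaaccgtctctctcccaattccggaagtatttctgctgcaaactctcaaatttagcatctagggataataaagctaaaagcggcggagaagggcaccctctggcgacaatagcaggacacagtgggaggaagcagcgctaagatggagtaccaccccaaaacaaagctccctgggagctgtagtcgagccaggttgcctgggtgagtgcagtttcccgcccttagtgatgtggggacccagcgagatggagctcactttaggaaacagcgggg
Ifit3: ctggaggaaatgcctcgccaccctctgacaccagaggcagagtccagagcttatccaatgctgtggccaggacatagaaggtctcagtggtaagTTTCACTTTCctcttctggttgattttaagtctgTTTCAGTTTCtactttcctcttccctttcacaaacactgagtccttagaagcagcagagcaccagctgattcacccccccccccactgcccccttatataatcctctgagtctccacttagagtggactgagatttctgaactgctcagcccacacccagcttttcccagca

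The members differed in this element. Ifit1 and Ifit3 each held 2 matches, Ifit1bl1 held 1 in each of its 2 annotated windows, and Ifit2 held 0 in either of its 2 windows. Among 32851 windows of the same length, 3.44% held at least 1 match and 0.225% held at least 2. The Ifit1 matches began 104 and 85 bases before the transcript start, those of Ifit3 156 and 122 bases before it, and that of Ifit1bl1 104 bases before it in the window printed. The matches of Ifit1 lie in 245 bases that its window shares with that of Ifit1bl2, which is transcribed the other way. The windows of Ifit3 and Ifit3b were 99.6% identical over 260 aligned bases. A match of letters is not a measured binding site, and no match says only that these letters are not in these windows.

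The arrays were compared on the log2 scale after quantile normalization, and a probe set was called at a limma adjusted p under 0.05 over all 45037. As deposited, 3 arrays had raised dim values, with lower quartiles of 18.7 to 19.5 in allogeneic mice 1, 3 and 4 against 13.8 to 14.4 elsewhere, and the members are also given without them. A background limit per array, set from 27 probe sets for bacterial transcripts, was at most 5.32. Of 12 measured markers of B-lymphoblastic leukaemia 0 were below background on all arrays and 0 were called, and their summed level was 81997 to 85185 in allogeneic and 80931 to 83554 in syngeneic samples. The sorted cells thus carried the labelled cell type's markers in both groups.

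Ifit1bl1 was the only member of the 4 that was called. Allogeneic leukaemia had log2 intensities of 9.76, 10.89, 10.44, 10.65 and 9.91 in animals 1 to 5, against 7.46, 7.51, 8.35, 7.56 and 7.35 in syngeneic animals 1 to 5. Every allogeneic value lay above every syngeneic one. In the deposited linear values the same probe set read 851, 1939, 1384, 1636 and 956 in allogeneic samples and 189, 182, 316, 202 and 163 in syngeneic samples.

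Ifit1bl1 rose by 2.68 on the log2 scale in allogeneic leukaemia (SE 0.27, 95% confidence interval 2.08 to 3.28, 5 animals per group, limma adjusted p = 0.00263), which is 6.41-fold. The group means were 10.33 ± 0.48 in allogeneic and 7.65 ± 0.40 in syngeneic samples (SD, n = 5 each). The two-sided exact permutation test gave p = 0.00794, the smallest that 252 assignments of the arrays allow. For comparison, 0.271% of all 45037 probe sets were called higher, 0.14% were called lower, 2.37% had all allogeneic values above all syngeneic ones, and 4.74% did not overlap in either direction. Syngeneic animal 3 was the highest of its group, and without it the difference was 2.86 (limma adjusted p = 0.00229). Without allogeneic animals 1, 3 and 4 it was 2.78 (limma adjusted p = 0.0299).

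**Figure D1:**
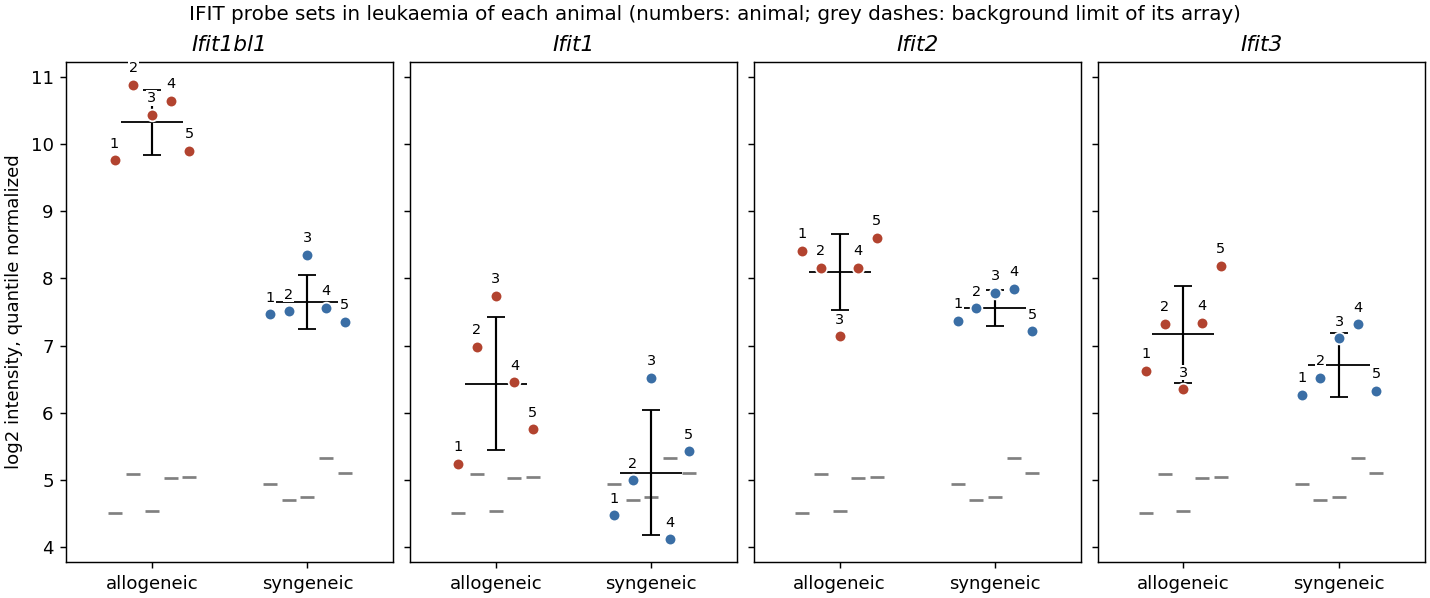
Log2 intensity after quantile normalization (vertical axis) of the 4 IFIT probe sets in each allogeneic and each syngeneic animal, with the group mean and SD in black (n = 5 each) and the background limit of each array as a grey dash. Only for Ifit1bl1 do all 5 allogeneic points (9.76 to 10.89) lie above all 5 syngeneic points (7.35 to 8.35), and 2 of the syngeneic points of Ifit1 lie below their background limit.

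Ifit1, the cap-reading member for which the family is best known, was dim and variable. Its log2 intensities were 5.24, 6.98, 7.74, 6.45 and 5.75 in allogeneic animals 1 to 5, against 4.47, 4.99, 6.52, 4.11 and 5.43 in syngeneic animals 1 to 5. The groups overlapped, since syngeneic animal 3 exceeded allogeneic animals 1, 4 and 5. The probe set was above background on 5 of 5 allogeneic and 3 of 5 syngeneic arrays. The difference was 1.33 (SE 0.55, 95% confidence interval 0.10 to 2.56), with an unadjusted p of 0.0367 and an adjusted p of 0.261 by limma, so it was not called. The two-sided exact permutation p was 0.0714, and leaving out allogeneic animal 1 brought it to 0.0476, leaving out syngeneic animal 3 to 0.0317, and the deposited scale to 0.0476. Its SD was 0.99 in allogeneic and 0.93 in syngeneic samples, against medians over all probe sets of 0.51 and 0.29.

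Ifit2 and Ifit3 were above background on all 10 arrays, and neither was called. Ifit2 had 8.41, 8.15, 7.14, 8.15 and 8.60 in allogeneic animals 1 to 5, against 7.37, 7.56, 7.79, 7.84 and 7.21 in syngeneic animals 1 to 5. Of the allogeneic animals, 4 lay above all syngeneic ones and animal 3 lay below all of them. The difference was 0.54 (SE 0.27, 95% confidence interval -0.06 to 1.14, limma adjusted p = 0.343, exact permutation p = 0.103). Without allogeneic animal 3 it was 0.78, with a limma adjusted p of 0.114 and an exact permutation p of 0.0159.

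Ifit3 had 6.62, 7.33, 6.35, 7.34 and 8.18 in allogeneic animals 1 to 5, against 6.26, 6.52, 7.11, 7.32 and 6.32 in syngeneic animals 1 to 5. The groups overlapped broadly, and allogeneic animal 5 was the highest of all. The difference was 0.46 (SE 0.36, 95% confidence interval -0.34 to 1.25, limma adjusted p = 0.55, exact permutation p = 0.198). It became 0.20 when allogeneic animal 5 was left out and 1.07 when animals 1, 3 and 4 of that group were, and was called in neither case. All 4 members had a positive difference, as did 48.5% of all probe sets, and the members' median was 0.93.

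The size of the change was then compared between the members within each array, as the difference between the log2 values of a pair of genes, over 6 pairs. Ifit1bl1 changed by 2.14 more than Ifit2 and by 2.22 more than Ifit3, each with a two-sided exact permutation p of 0.00794 and p = 0.0238 adjusted over the 6 pairs. Both pairs passed under every leave-one-out and on the deposited scale, where the adjusted p ran from 0.0238 to 0.0476. The change of Ifit1 minus that of Ifit1bl1 was -1.35 (exact permutation p = 0.0238, adjusted p = 0.0476). That call was lost on the deposited scale (-1.23, exact permutation p adjusted to 0.0952) and on leaving out any of 9 of the 10 animals, with adjusted values up to 0.0952. Ifit2 and Ifit3 differed in their change by 0.081 (exact permutation p = 0.817, adjusted p = 0.817), with a between-gene difference of 0.93 ± 0.51 in allogeneic and 0.85 ± 0.24 in syngeneic samples (SD, n = 5 each).

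The order of the animals was not the same for all members. In the allogeneic group Ifit1bl1 and Ifit1 were both highest in animals 2, 3 and 4 and lowest in animal 1, followed by animal 5. Ifit2 and Ifit3 were both highest in animal 5 and lowest in animal 3. Allogeneic animal 3 was thus 2.64 above the syngeneic mean for Ifit1 and 2.79 above it for Ifit1bl1, but at -0.41 for Ifit2 and -0.36 for Ifit3. In the syngeneic group animal 3 was highest for Ifit1bl1 and Ifit1, at 0.71 and 1.41 above the group mean, while animal 4 was highest for Ifit2 and Ifit3. With 5 animals a group this ordering is a description and carries no test.

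**Figure D2:**
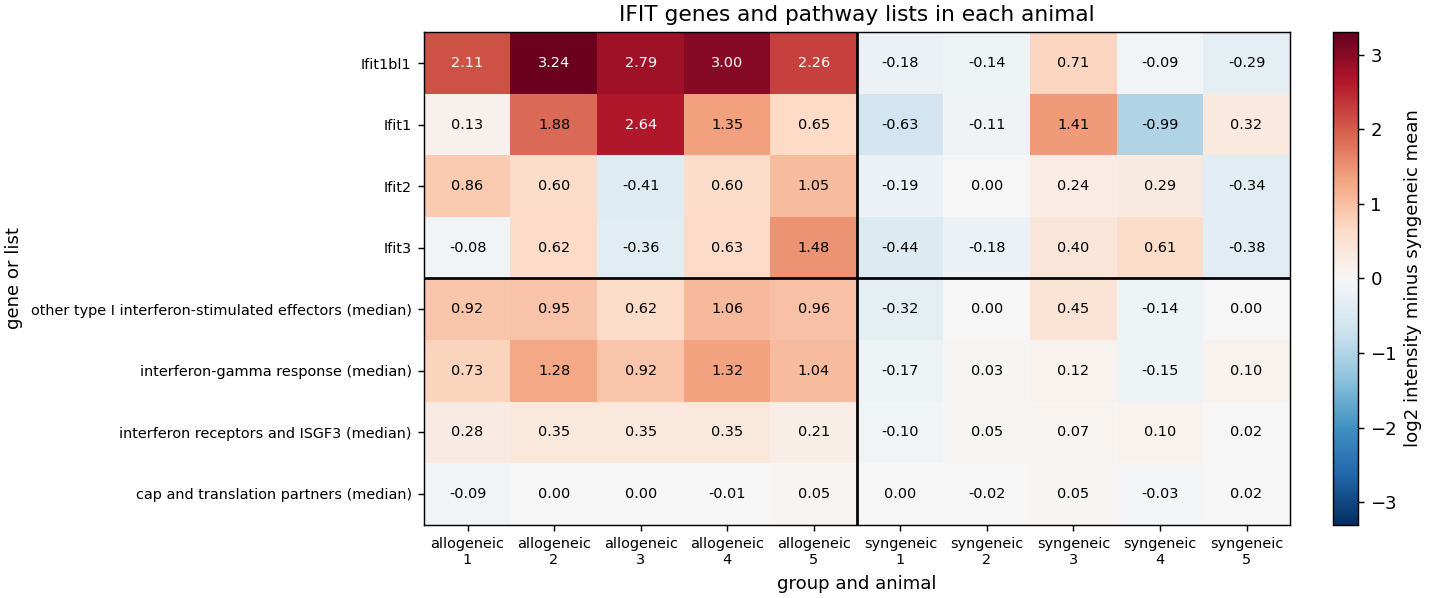
Log2 intensity minus the syngeneic mean (colour and printed values) of the IFIT genes, and the median of the same over each pathway list, in each allogeneic animal (left) and each syngeneic animal (right). Ifit1bl1 is between 2.11 and 3.24 in every allogeneic animal, whereas Ifit2 and Ifit3 are negative in allogeneic animal 3.

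Neighbours of the cluster on chromosome 19 were read in gene order. Ifit1bl2, the remaining measured relative, was dim, and neither of its 2 probe sets was called (limma adjusted p = 0.486 and 0.146). It was above background on 3 allogeneic arrays by either probe set, against 1 and 0 syngeneic arrays. Lipa, the lysosomal acid lipase gene 23.1 kb before the cluster, differed by -0.06 to 0.08 over 3 probe sets. Ch25h, a cholesterol hydroxylase gene 75.4 kb before it that interferon can induce, and Slc16a12, a transporter gene 5.42 kb after it, were below background on all 10 arrays.

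Fas, the death receptor gene 223 kb before the cluster, was the only one of the 10 measured neighbours that was called. Among 18193 genes 0.368% were called higher, and 2.37% of all probe sets had all allogeneic values above all syngeneic ones. Fas had 7.76, 7.89, 7.80, 8.07 and 7.69 in allogeneic animals 1 to 5, all above the syngeneic range of 6.38 to 6.63. It rose by 1.36 (SE 0.12, limma adjusted p = 0.00141). Acta2, the smooth muscle actin gene next to Fas, gave -0.86 to 0.49 over 3 probe sets that disagreed in sign. Kif20b, a mitotic kinesin gene 259 kb after the cluster, gave -1.59 to -0.38 over 4 probe sets, and 0 of them were called. Pank1, a pantothenate kinase gene, gave -0.24 to 0.41 over 4 probe sets. Stambpl1, a deubiquitinase gene, gave -0.38 and -0.12, and Rnls, the renalase gene, gave 0.58. The list's median was -0.17, against 0.011 for 18193 genes.

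**Figure D3:**
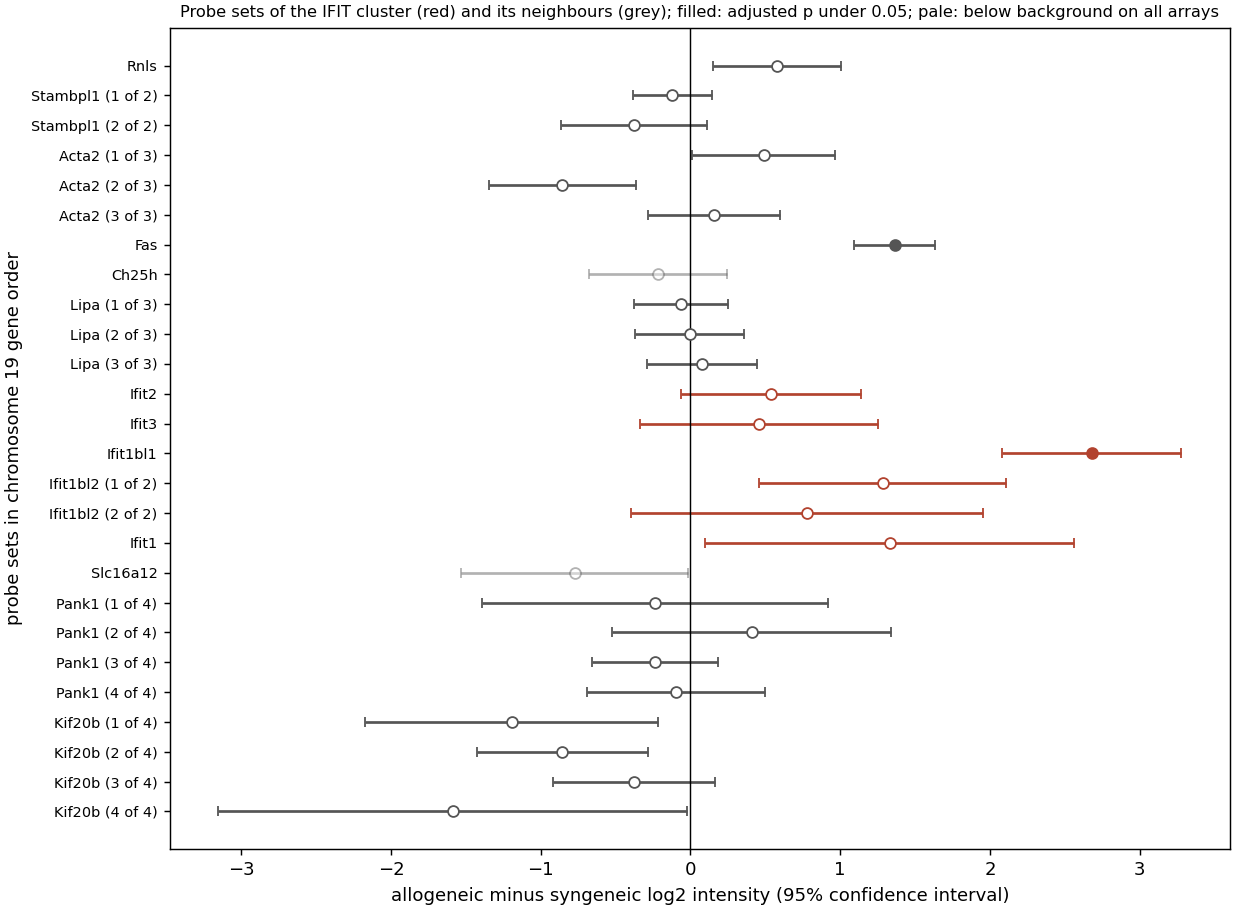
Allogeneic minus syngeneic log2 intensity with its 95% confidence interval (horizontal axis) for each probe set of the IFIT cluster and its neighbours in chromosome 19 gene order from top to bottom (n = 5 animals per group). Ifit1bl1 (2.68) and Fas (1.36) are the only filled, called points.

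The route that switches the family on was examined next, with 1 probe set per gene, of which 0.368% were called higher and 0.055% lower among 18193 genes. Among 12 measured genes of interferon receptors and ISGF3, 1 rose, 0 fell and the median was 0.21. Irf1, a transcription factor that also binds response elements, was that gene (1.71, SE 0.15, limma adjusted p = 0.00141). Irf9, the DNA-binding subunit of ISGF3, had log2 intensities of 9.67 to 10.33 in the 5 allogeneic animals and 8.45 to 9.58 in the 5 syngeneic ones, without overlap, but was not called (0.99, SE 0.23, limma adjusted p = 0.101). Irf7, which amplifies interferon production, differed by 1.39 (SE 0.32, limma adjusted p = 0.101), and was above background on 3 of 5 syngeneic arrays. The receptor chain gene Ifnar2 differed by 0.71 (limma adjusted p = 0.173). Stat2, another subunit gene of ISGF3, differed by 0.21 (limma adjusted p = 0.614).

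Interferon genes themselves gave no call among 6 measured. Ifnb1, Ifna2, Ifna4 and Ifng were below background on all 10 arrays. Ifna5 was above it on 2 of 5 arrays in each group, and Ifna1 on all 10. Whether the Ifna1 and Ifna5 probe sets also bind transcripts of related interferon genes was not tested. Ifna1 had 6.03 to 6.40 in allogeneic and 5.67 to 5.97 in syngeneic samples (0.39, SE 0.13, limma adjusted p = 0.18). Its allogeneic values thus all lay above its syngeneic ones, as did those of 2.37% of all probe sets. Among 11 measured genes of RNA sensing and the TBK1 route, 2 rose and 0 fell, with a median of 0.28. They were Ifih1, the sensor MDA5 (1.45, SE 0.17, limma adjusted p = 0.00684), and Zbp1, which senses left-handed double helices (3.06, SE 0.28, limma adjusted p = 0.00141). Ddx58, the sensor RIG-I, differed by 0.49 (limma adjusted p = 0.209) and Tlr3 by 0.94 (limma adjusted p = 0.0986).

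Of 23 measured other type I interferon-stimulated effectors, 6 rose, 0 fell and 17 were not called, with a median of 0.98 beside the IFIT members' 0.93. Xaf1, which promotes cell death and is induced by interferon, had 11.40, 11.87, 11.10, 12.06 and 11.86 in allogeneic animals 1 to 5 and 9.48 to 10.77 in syngeneic ones (1.71, SE 0.27, limma adjusted p = 0.032). Its call was lost on leaving out any single animal other than allogeneic animals 1 and 3 and syngeneic animal 3, with limma adjusted p up to 0.106. Oasl1, Rtp4 and Bst2 rose by 1.60, 3.14 and 1.37, and Bst2 was not called without syngeneic animal 1, 3 or 5. Oasl2 rose by 2.91, and its call was lost on leaving out any animal other than allogeneic animal 1 and syngeneic animal 3. Oasl1 and Oasl2 were each above background on 3 of 5 syngeneic arrays, so the sizes of their differences rest in part on values near background. Oas3 was called at 3.35, but it was above background on 1 of 5 syngeneic arrays, so the size of its difference rests on values near background. Usp18, which removes ISG15 from proteins, had a larger difference than Ifit1, at 1.92, and was not called either (SE 0.58, limma adjusted p = 0.159). The number called ran from 3 to 10 on leaving out single animals, with 3 without syngeneic animal 1 or 5 and 10 without allogeneic animal 1. Of 17 measured interferon-gamma response genes 8 rose and 0 fell, with a median of 1.16. They were the GTPase genes Iigp1, Gbp6, Gbp2, Igtp, Irgm2 and Irgm1, the immunoproteasome gene Psmb9 and Irf1, and leaving out single animals gave 7 to 9 calls. Iigp1, at 7.56, was above background on 1 of 5 syngeneic arrays, so that size too rests on values near background. The other 7 lay between 1.16 and 5.73, the largest being Gbp6, which was above background on 4 of 5 syngeneic arrays. The call of Irgm2 was lost on leaving out any animal other than allogeneic animals 1 and 5, with limma adjusted p up to 0.114. Both lists were chosen with earlier results of these data in view, and no test of a list was made.

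No partner in the activity of IFIT proteins was called. Among 10 measured cap methylation enzymes and translation initiation factors, 0 rose, 0 fell and the median was -0.010. Cmtr1, the enzyme that adds the ribose methyl mark IFIT1 looks for, differed by 0.19 (SE 0.14, limma adjusted p = 0.538). Eif3a, a subunit of the initiation factor that IFIT proteins bind, differed by -0.25 (SE 0.12, limma adjusted p = 0.338), and Eif3c and Eif3e by -0.015 and -0.024.

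**Figure D4:**
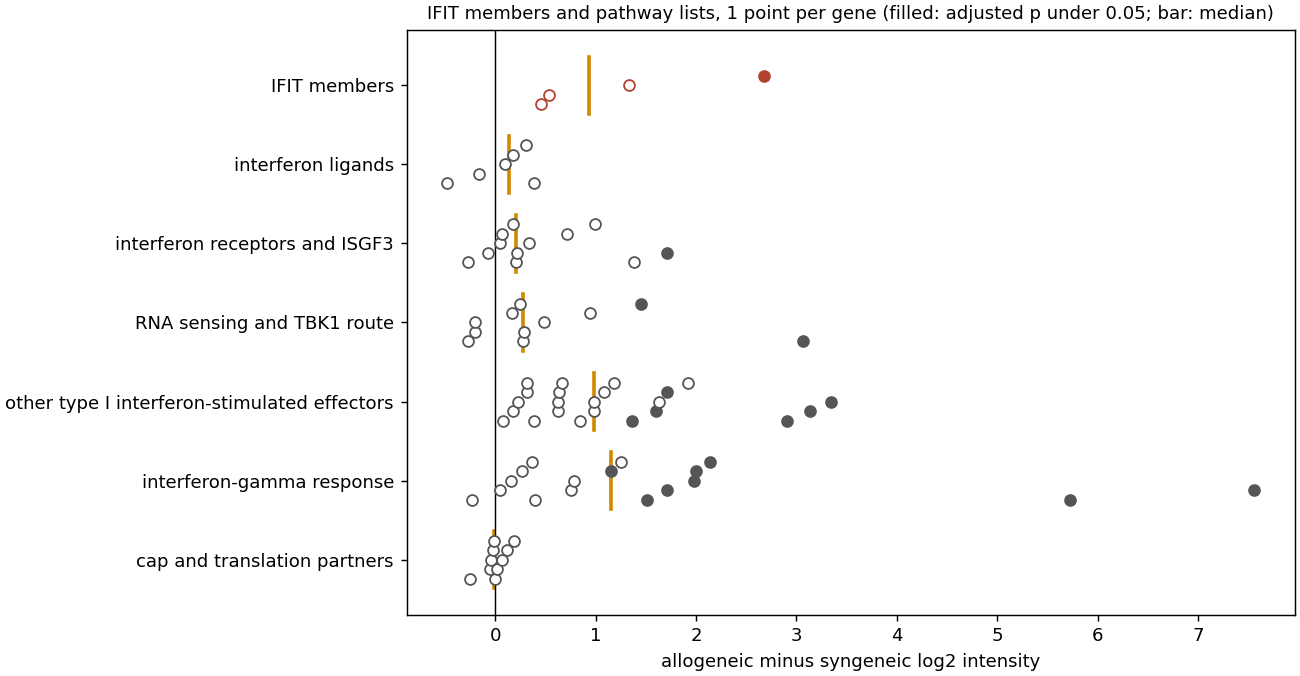
Allogeneic minus syngeneic log2 intensity (horizontal axis) of the 4 IFIT members and of each measured gene of the pathway lists, with called genes filled and list medians as bars (n = 5 animals per group). The IFIT members run from 0.46 to 2.68 around a median of 0.93, and the cap and translation genes run from -0.25 to 0.19.

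Genes whose pattern over the 10 arrays was most like each member were found among 12191 genes above background on at least 5 arrays, by the root mean square difference of mean-centred log2 values. For Ifit1bl1 they were Prodh, the proline dehydrogenase gene, at 0.40, Tnfsf10, the death ligand TRAIL, at 0.42 and Gm12185 at 0.44, where the median gene was at 1.42 and the spread of Ifit1bl1 around its own mean was 1.40. Tnfsf10 rose by 2.56 (SE 0.23, limma adjusted p = 0.00152). For Ifit1 they were Slfn1, a Schlafen family gene, at 0.51, Calhm6 at 0.52 and Dmc1 at 0.55, where the median gene was at 1.10 and the spread of Ifit1 was 1.09. For Ifit2 the nearest was Ifnar2 at 0.16, followed by Selp, which encodes P-selectin, and Snx29, a sorting nexin gene, both at 0.18, where the median gene was at 0.557 and the spread of Ifit2 was 0.479. For Ifit3 they were Slc4a8, a bicarbonate transporter gene, at 0.22, and 1700042O10Rik and the tubulin gene Tubb6, both at 0.24, where the median gene was at 0.638 and the spread of Ifit3 was 0.59. Distances are thus to be read against each member's own spread and not between members. The 4 sets of nearest genes had no gene in common. With 3 genes kept per member and unequal spreads, that does not tell whether the members share a pattern.

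Markers of other cell types were measured beside these results, since fewer cells of a type and less RNA per cell cannot be told apart in sorted bulk samples. Of 14 macrophage and monocyte markers 0 were called, 6 were positive and the median difference was -0.080. Their summed level was 13103 to 14803 in allogeneic and 9746 to 11954 in syngeneic samples, without overlap. Most of that sum came from 2 bright probe sets, Mpeg1 at 12.05 to 13.14 in allogeneic and 11.58 to 12.28 in syngeneic samples and Fcgr3 at 12.25 to 12.74 in allogeneic and 11.95 to 12.44 in syngeneic samples, and no single marker was without overlap. In allogeneic animal 1 Lyz2 read 5.23, against 8.76 to 9.46 in the other allogeneic and 7.74 to 8.24 in syngeneic animals. C1qb read 2.73 there, below that array's limit of 4.50, against 7.14 to 9.04 and 6.60 to 7.58. The list's median deviation from the syngeneic mean was -0.44 in that animal and 0.18 to 0.42 in the other allogeneic animals. Itgam, Cd14 and Cx3cr1 were below background on all arrays. Of 9 dendritic cell markers 1 was called, Bst2, which interferon also induces, and the sums were 7248 to 8129 in allogeneic and 6404 to 7301 in syngeneic samples.

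Of 9 NK cell markers 5 were below background on all arrays, among them the defining Ncr1, and 0 were called. Their sums were 1264 to 2089 in allogeneic and 1028 to 1519 in syngeneic samples. Of the 9, 6 were positive, with a median difference of 0.27. Gzma, the brightest of them, had 9.06 to 10.40 in allogeneic and 8.40 to 9.22 in syngeneic samples. It differed by 1.06 (SE 0.26, limma adjusted p = 0.11) and was called in 3 of 19 alternatives. Of 12 stroma and endothelium markers 5 were below background on all arrays and 0 were called, with sums of 775 to 1013 in allogeneic and 599 to 806 in syngeneic samples. T cell markers summed to 698 to 1302 in allogeneic and 658 to 1937 in syngeneic samples, granulocyte markers to 1293 to 7630 and 1909 to 4762, and erythroid markers to 6528 to 9451 and 9145 to 10184, and 0 of any of these lists were called. The part of such cells in the Ifit1bl1 difference was not tested.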

How the data were processed

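The authors deposited linear intensity values, 1 per probe set in each animal. Per the labels, total RNA was extracted with Trizol and biotinylated cDNA was made with NuGEN kits. How probe signals were summarised and scaled is not given in the labels. Gene symbols came from the platform's annotation and were brought to GRCm38.p6 through gene identifiers, and 34945 of 45037 non-control probe sets had 1 symbol. Values were put on the log2 scale without a pseudocount and quantile normalized between arrays, and all 45037 were fitted with limma 3.58.1 (lmFit and eBayes, R 4.3.3) and adjusted by Benjamini-Hochberg. The background limit is the 95th percentile of 27 bacterial control probe sets per array. A gene in a list is its probe set of highest mean. Exact permutation tests used SciPy 1.17.1. The fit was tested on simulated data. The number of arrays limits the precision.

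The members, lists and tests were chosen with earlier results of these data known. Genes eligible to be named were the IFIT probe sets, called list genes and up to 3 more per list by smallest p, all measured neighbours, the 3 nearest patterns per member and the brightest marker per list. Mpeg1, Lyz2, C1qb, Stat2, Usp18, Eif3c, Eif3e and marker genes below background were added after their values were seen. Alternatives covered normalization, a pseudocount of 16, a filter on dim probe sets, 1 probe set per gene, the eBayes settings, array weights, a block on animal number and leaving out arrays.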

Additional observations from a re-analysis of the deposited data

Results flagged for a closer look

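Each group's 5 values were searched for an animal distant from its 4 companions, over 134 gene and group pairs. There were 9 such animals, where chance alone marks about 1 in 20 pairs, or 6.7 of the 134, so the count is near that of chance. The pairs are not independent, since genes can vary together. Syngeneic animal 3 accounted for 4 of them, each time as the highest. Its Ifit1bl1 log2 intensity was 8.35, with 7.35 to 7.56 in its companions. Its Ddx58 was 9.23, with 8.49 to 8.63 in the companions, its Rtp4 8.78, with 6.81 to 7.36, and its Tlr3 7.47, with 6.43 to 6.68. Syngeneic animal 4 was low for Ifih1, which read 5.74 there and 6.22 to 6.29 in its companions, and for Kif20b, which read 10.16 there and 10.51 to 10.61 in them. The helicase gene Eif4a1 was low in syngeneic animal 1, at 13.39, with 13.46 to 13.48 in its companions. Slfn1, whose pattern was nearest to that of Ifit1, was low in allogeneic animal 1, at 7.44, with 8.77 to 9.13 in its companions. Zbp1 was low in allogeneic animal 3, which read 10.92 while its companions read 11.60 to 11.80.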

How the results depend on the processing

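The Ifit1bl1 difference kept its direction in all 19 alternatives, from 2.52 to 2.86, and stayed called in 18. The exception was the replicate block on animal number (2.68, limma adjusted p = 0.0777). Deviations of equally numbered animals 1 to 5 correlated at 0.34, 0.37, -0.012, -0.24 and -0.15. Allogeneic animals 1 and 2 were each most like the syngeneic animal of the same number, and animals 3, 4 and 5 were not. These 5 values show no pairing by number across all animals, but cannot exclude it for some. Under the block 7 probe sets were called higher and 0 lower. List counts were then 0 for locus neighbours, 0 for receptors and ISGF3, 0 for RNA sensing, 0 for type I effectors and 1 for the interferon-gamma response. Ifit1, Ifit2 and Ifit3 were not called by limma in any alternative, with ranges of 1.01 to 1.68, 0.41 to 0.83 and 0.20 to 1.07. On the deposited scale the exact permutation test of Ifit1 passed (1.43, p = 0.0476) and Ifit1 against Ifit1bl1 did not (-1.23). Without allogeneic animals 1, 3 and 4 the exact permutation p of Ifit1bl1 was 0.0952 at 2.78, the smallest that 2 against 5 arrays allow.

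Probe sets called higher, 122, became 266 with a pseudocount of 16, 342 with the filter on dim probe sets, 292 with trend and robust eBayes, 553 with array weights and 676 without allogeneic animals 1, 3 and 4. Those called lower, 63, became 244, 274, 190, 845 and 1359 in the same order, and 14 with 1 probe set per gene. Type I effectors, 6, became 10 with the pseudocount, the filter and trend and robust eBayes, and 11 with array weights. Receptors and ISGF3, 1, became 2 with the filter, trend and robust eBayes, array weights and without those 3 animals. Leaving out single animals gave 58 to 634 higher and 12 to 1401 lower probe sets, the largest counts without allogeneic animal 1, and 3 to 10 type I effectors. It gave differences of 1.01 to 1.68 for Ifit1, with exact permutation p of 0.0317 to 0.143. For Ifit2 it gave differences of 0.41 to 0.78, with exact permutation p of 0.0159 to 0.206. Differences in change were -1.65 to -1.19 for Ifit1 against Ifit1bl1. They were -0.14 to 0.21 for Ifit2 against Ifit3, whose sign turned without allogeneic animal 1. Among single genes signs turned for uncalled ones: Cd24a (-0.043 deposited, -0.077 median-centred), Ch25h (0.036 and 0.0015), Ctla4 (-0.16) and Ifit1bl2 (-0.47) without allogeneic animals 1, 3 and 4, and, leaving out single animals, Ctla4 (-0.072 to 0.64) and Pank1 (-0.52 to 0.12). The cause was not tested.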
